A study of Mus musculus with 12 samples.

Results

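The genes described here are 10 regulators and matrix components of cartilage: Sox9, Prg4, Comp, Col2a1, Col9a1, Col9a2, Col9a3, Acan, Matn3 and Col10a1. They were chosen by name for their role in chondrocytes, and all 10 were found among the 25655 genes of each deposited table. The study set PDGFRα+ mesenchymal cells from mice with a labelled conditional deletion of Esr1, the estrogen receptor alpha gene, against controls, and asked which Esr1 targets in muscle cells bear on bone metabolism. RNA of sorted cells was read by 3' mRNA sequencing in 12 samples, with 3 in each of 4 groups. All muscle samples were sorted as CD45-, CD31-, Vcam1- and PDGFRα+. Muscle knockout samples carried PDGFRα-CreER with Esr1flox/flox, and muscle controls carried PDGFRα-CreER alone in replicates 1 and 2 or with Esr1flox/+ in replicate 3. All bone samples were sorted as CD45-, CD31- and PDGFRα+. Bone knockout samples carried PDGFRα-CreER with Esr1flox/flox, and bone controls carried PDGFRα-CreER alone in replicates 2 and 3 or Esr1flox/flox without the Cre in replicate 1. The Cre is driven by the Pdgfra gene and is active only with tamoxifen, so deletion can arise only in cells that express the Cre at that time. The series title states that the mice were female. No label gives age, tamoxifen dosing or the number of animals per sample, and p-values measure only the spread between these samples, which may be technical.

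Cartilage is built by chondrocytes, whose identity depends on the transcription factor SOX9. SOX9 drives the genes of type II collagen and aggrecan, which form the fibril network and the water-binding gel of the tissue. Type IX collagen, matrilins and COMP link the fibrils to one another and to the gel, lubricin coats the joint surface, and type X collagen marks hypertrophic chondrocytes of the growth plate. Cells of the joint surface, tendon and synovium express some of these genes too, COMP and lubricin among them.

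Promoter sequence is shown for Col9a1 and Col9a2, which encode partner chains of type IX collagen, because estrogen receptor alpha binds DNA and Col9a1 had the smallest p of the 10 genes. RefSeq windows on GRCm38.p6, from 250 bases before to 50 bases after a start site, matched 5 of the 10 genes, with 6 windows. Col9a1 has an upstream start site, used in cartilage, and a downstream one that gives a shorter protein. A 3' read cannot tell transcripts of these starts apart. Capitals mark the estrogen response half-site GGTCA or its reverse complement TGACC, and all 3 windows are on the plus strand.
Col9a1 upstream start, chr1:24177360-24177659: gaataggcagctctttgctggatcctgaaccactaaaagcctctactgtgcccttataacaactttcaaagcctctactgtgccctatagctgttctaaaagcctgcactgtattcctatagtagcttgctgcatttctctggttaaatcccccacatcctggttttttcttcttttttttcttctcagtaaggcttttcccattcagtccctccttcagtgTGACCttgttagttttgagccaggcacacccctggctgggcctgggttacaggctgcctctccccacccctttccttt
Col9a1 downstream start, chr1:24194953-24195252: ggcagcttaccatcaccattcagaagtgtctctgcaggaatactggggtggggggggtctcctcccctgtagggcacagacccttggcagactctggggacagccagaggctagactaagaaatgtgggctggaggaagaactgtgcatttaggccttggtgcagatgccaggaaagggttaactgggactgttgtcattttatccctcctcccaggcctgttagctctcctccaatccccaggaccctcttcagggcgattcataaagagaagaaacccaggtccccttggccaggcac
Col9a2, chr4:121039316-121039615: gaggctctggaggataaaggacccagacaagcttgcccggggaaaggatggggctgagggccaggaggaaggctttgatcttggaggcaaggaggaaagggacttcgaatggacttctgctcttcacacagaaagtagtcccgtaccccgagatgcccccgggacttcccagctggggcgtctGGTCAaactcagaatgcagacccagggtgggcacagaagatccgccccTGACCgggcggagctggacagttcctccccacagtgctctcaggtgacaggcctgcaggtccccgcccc
The upstream Col9a1 window held 1 half-site, the downstream window none and the Col9a2 window 2. Half-sites on either strand were found in 3 of the 6 windows, the third being that of Matn3, and in 40.5% of all 32851 windows of this length. The full palindromic element, a half-site and its reverse complement with 3 bases of any kind between them, was in 0 of the 6 windows and in 0.0700% of all windows. These are letter matches in short windows and say nothing of receptor binding.

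The tables give 1 level per gene, the larger of the knockout and control group means, in a unit that their headers do not name. Whether it is scaled by gene length is not stated, so the levels of different genes are not ranked against each other. Values for single samples could not be assigned to groups, so no spread between replicates can be given, and neither can the mean of the smaller group. The muscle and bone tables may have been normalized separately, and their levels are set side by side without a test. The share of 4 globin genes in the sum of larger group means was 0.338% in muscle and 58.4% in bone, computed from the authors' deposited table of each tissue. The stromal marker Pdgfra was at 494 in muscle and 8.60 in bone in these deposited tables. Esr1, the targeted gene, showed 1.02 as its log2 fold change in muscle (p = 0.404) and -2.69 in bone (p = 0.245) by the authors' deposited tables, and passed in neither. The floxed exons are not stated and a 3' read may lie outside them, so these values do not check the deletion.

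Fewer of the cartilage genes were detected in the muscle samples than in the bone samples. In muscle the authors' deposited table listed 5 of the 10 genes at 0 in both genotypes, namely Col9a1, Col9a3, Acan, Matn3 and Col10a1. In bone the authors' deposited table listed none of the 10 at 0. Among all genes, 48.7% were listed at 0 in muscle and 59.0% in bone, and 3.59% were at 0 in muscle with a value above 0 in bone. The larger group mean was higher in the bone table for 10 of the 10 genes, against 13.0% of all 25655 genes. The 25655 include the 59.0% listed at 0 in bone, which could not be higher there, so the 13.0% is a low background.

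**Figure D1:**
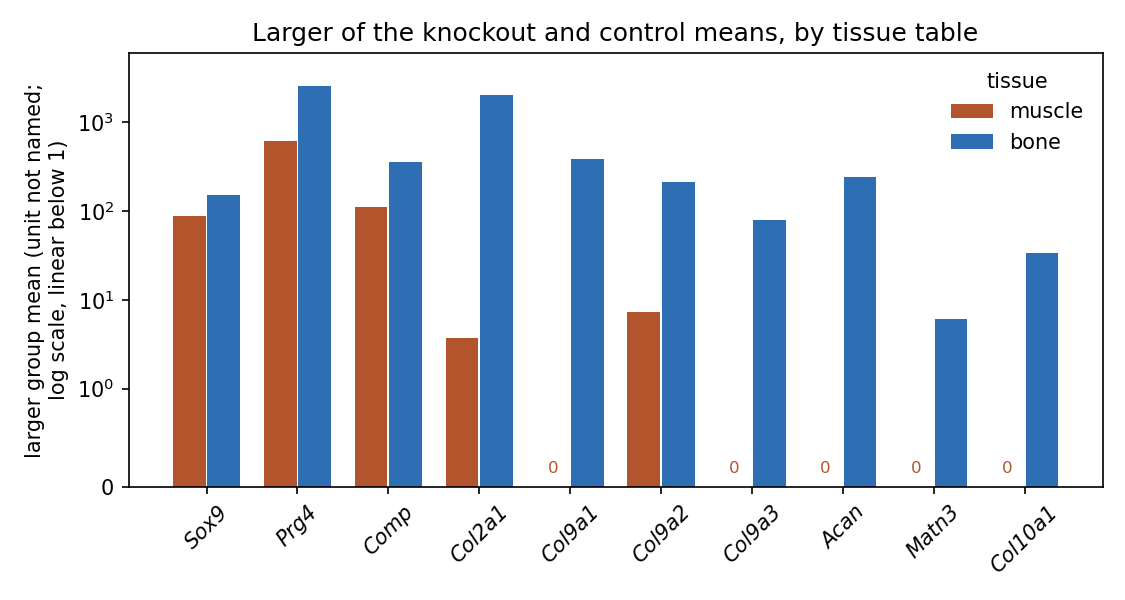
Larger of the knockout and control group means of the 10 cartilage genes (vertical axis, log scale with a linear part below 1, unit not named), with muscle at the left and bone at the right of each pair; a 0 marks a gene listed at 0. Sox9, Prg4 and Comp stand above 80 in both tissues, and the other 7 genes are below 10 or at 0 in muscle.

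The 3 members with an FDR in both tissues were the regulator Sox9 and the genes of the joint and tendon proteins lubricin and COMP. Sox9 (ENSMUSG00000000567, chr11:112782224-112787760, plus strand, GRCm38) had a larger group mean of 87.0 in muscle and 150 in bone by the authors' deposited tables. Prg4, the lubricin gene (ENSMUSG00000006014, chr1:150449412-150466165, minus strand), was listed at 610 in muscle and 2540 in bone by the authors' deposited tables. Comp (ENSMUSG00000031849, chr8:70373558-70382066, plus strand), which encodes a pentameric bridging protein, was listed at 111 in muscle and 356 in bone by the authors' deposited tables.

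Genes of the cartilage fibril and gel separated the tissues further. Col2a1, the type II collagen gene (ENSMUSG00000022483, chr15:97975602-98004695, minus strand), stood at 3.72 in muscle and 2040 in bone by the authors' deposited tables. Acan, the aggrecan gene (ENSMUSG00000030607, chr7:79053483-79115099, plus strand), was listed at 0 in muscle and at 240 in bone by the authors' deposited tables. Of the type IX chains, Col9a1 (ENSMUSG00000026147, chr1:24177610-24252684, plus strand) was listed at 0 in muscle and 386 in bone by the authors' deposited tables. Col9a2 (ENSMUSG00000028626, chr4:121039385-121055322, plus strand) had 7.31 in muscle and 214 in bone as larger group means of the authors' deposited tables. Col9a3 (ENSMUSG00000027570, chr2:180597790-180622189, plus strand) was at 0 in muscle and 79.3 in bone by the authors' deposited tables. The type IX protein is a trimer of these 3 chains, and bone samples had transcripts of each of them.

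Matn3 and Col10a1, the matrilin and hypertrophic members, were listed at 0 in muscle and above 0 in bone. Among matrilin genes outside the members, Matn4 was at 24.2 in muscle and 3.87 in bone, and Matn1 was at 0 in both. Matn3, a matrix adaptor gene (ENSMUSG00000020583, chr12:8947929-8972028, plus strand), was at 0 in muscle and 6.09 in bone by the authors' deposited tables. Col10a1, the type X collagen gene (ENSMUSG00000039462, chr10:34389981-34397085, plus strand), was at 0 in muscle and 33.3 in bone by the authors' deposited tables. Of the regulator and hormone genes tied to hypertrophy and joint formation, Ihh and Gdf5 were listed at 0 in both tissues by the authors' deposited tables. They belong to a list of 15 chondrocyte regulators, of which 4 were at 0 and 11 had a p in each tissue. Runx2 was at 3.60 in muscle and 7.27 in bone, and Pthlh at 22.3 and 7.30.

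In muscle, none of the cartilage genes passed the test of knockout against control. Of 10 genes, 5 had a p and 3 an FDR, and 0 of these 3 passed the authors' FDR of 0.05, where 0.127% of the 7107 genes with an FDR passed. At an unadjusted p of 0.05, 0 of the 5 passed, against 11.7% of all genes with a p. Comp had a log2 fold change of 1.08 in knockout over control samples by the authors' deposited table (p = 0.126, FDR = 1.00). The 95% interval that a two-sided normal test would attach to this p runs from -0.30 to 2.47. Sox9 had -0.52 by the authors' deposited table (p = 0.463), with an interval of -1.92 to 0.87 by the same approximation. Prg4 had the value nearest to 0 by the authors' deposited table, a log2 fold change of -0.02 (p = 0.966). Its interval of -0.88 to 0.84 was the narrowest of the 10 genes in either tissue.

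Col2a1 and Col9a2 had a p but no FDR in muscle. Their log2 fold changes of 2.58 and 2.46 by the authors' deposited table came at larger group means of 3.72 and 7.31 (p = 0.272 and 0.261). Intervals by the normal approximation were -2.03 to 7.19 for Col2a1 and -1.83 to 6.75 for Col9a2, each including 0.

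In bone, 7 of the 10 cartilage genes had a negative log2 fold change, and none passed the test. All 10 had an FDR, and 0 passed at 0.05, where 0.0352% of the 8534 genes with an FDR passed. At an unadjusted p of 0.05, 0 of the 10 passed, against 33.0% of all bone genes with a p. That share of all genes depended on level. It was 25.5% at a larger group mean of at least 10 and 5.56% at one of at least 100. The smallest p belonged to Col9a1, with a log2 fold change of -2.69 by the authors' deposited table (p = 0.0604, FDR = 0.138). This equals a 6.46-fold lower fitted level in knockout samples, with an approximate interval of -5.50 to 0.12 on the log2 scale. In bulk samples, fewer cells of a type and less RNA per cell cannot be told apart.

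**Figure D2:**
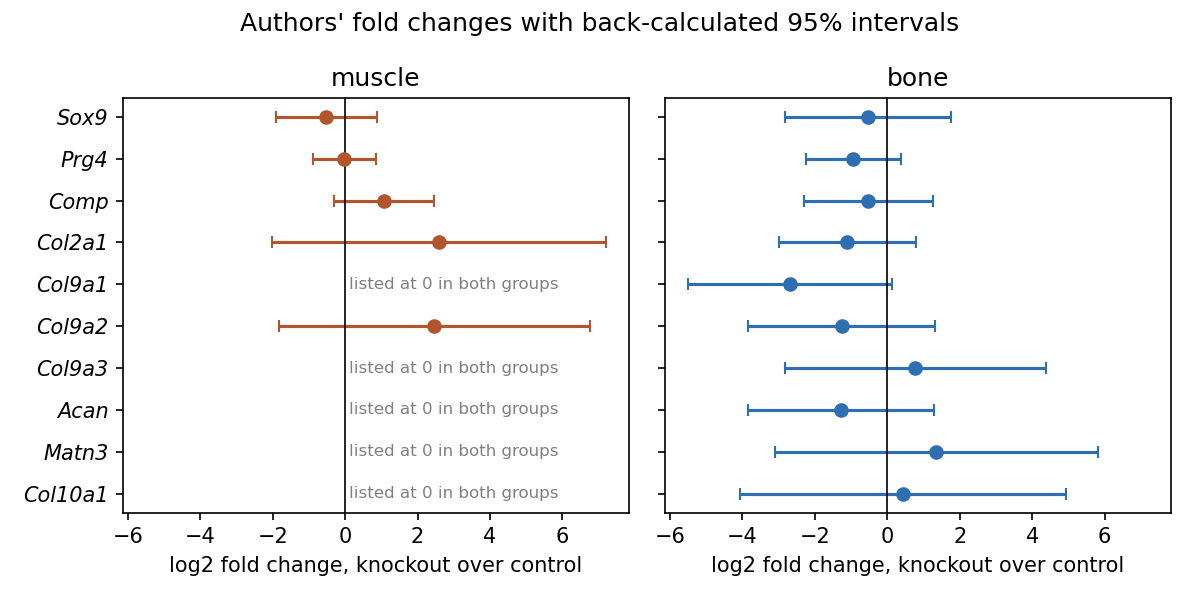
Log2 fold change of knockout over control for the 10 cartilage genes in muscle (left) and bone (right); points are the authors' values and bars the 95% intervals back-calculated from the authors' p with a normal approximation. Every interval includes 0, and in bone 7 of 10 points lie to the left of it.

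The other bone members with a negative value were the main fibril and gel genes and those of the joint surface. Prg4 had -0.94 by the authors' deposited table (p = 0.158, FDR = 0.308), with an approximate interval of -2.25 to 0.37. Col2a1 had -1.11 by the authors' deposited table (p = 0.250, FDR = 0.446), and the upper end of its interval was 0.78. Acan and Col9a2 had nearly the same values by the authors' deposited table, -1.27 (p = 0.331) and -1.26 (p = 0.337). Sox9 and Comp were closer to 0, at -0.53 (p = 0.650) and -0.52 (p = 0.564) by the authors' deposited table.

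Positive values in bone belonged to Col9a3, Matn3 and Col10a1. Col9a3 had 0.77 by the authors' deposited table (p = 0.674), opposite in sign to its partner chains Col9a1 and Col9a2. Matn3 had 1.35 (p = 0.552) and Col10a1 0.44 (p = 0.847) by the authors' deposited table. Intervals for these genes spanned -2.83 to 4.37, -3.10 to 5.81 and -4.06 to 4.94, each including 0.

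The 10 members had a median log2 fold change of -0.74 in bone, where all 10518 bone genes with a p had a median of 2.51 and 30.3% of them were negative. Over the 5063 bone genes whose larger group mean was 10 or more, 46.0% were negative and the median was 0.19. Over the 738 at 100 or more, 48.4% were negative and the median was 0.03. No count over members above such a level is given, because a gene passes it through the group in which it is higher. In muscle the 5 members with a p had a median of 1.08, and all 13158 muscle genes with a p had a median of 0.12. The 5 include Col2a1 and Col9a2 at 2.58 and 2.46, which had no FDR and larger group means of 3.72 and 7.31. The 8217 muscle genes whose larger group mean was 10 or more had a median of 0.04.

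**Figure D3:**
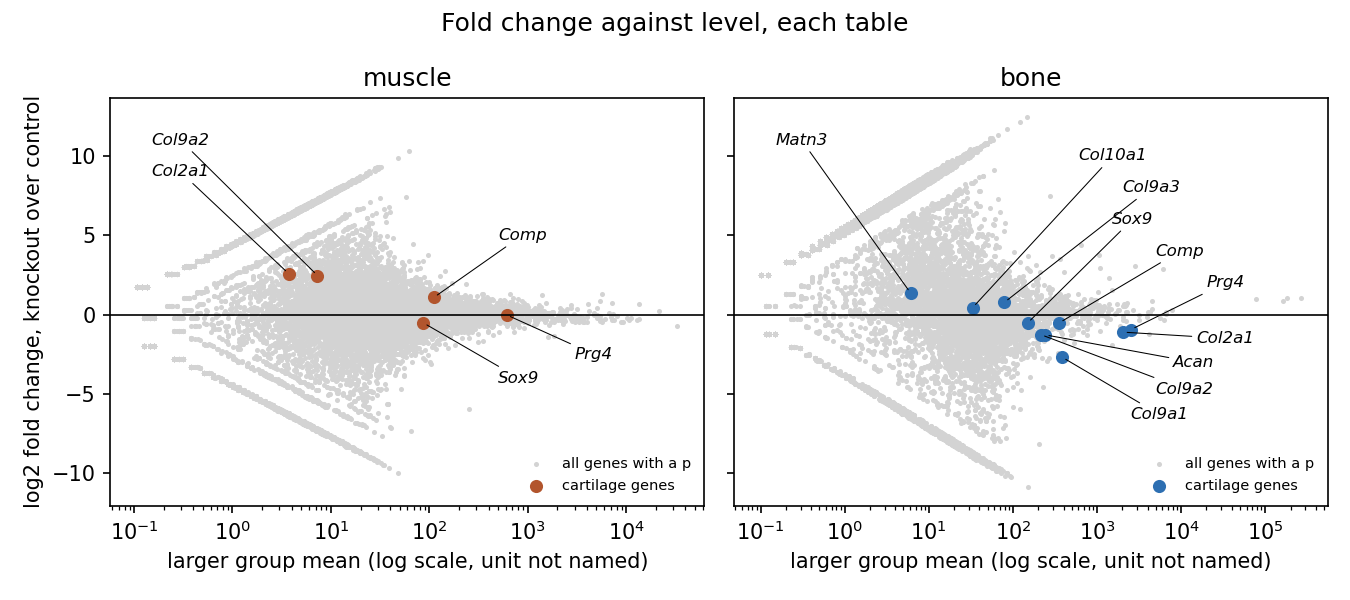
Log2 fold change of knockout over control (vertical axis) against the larger group mean (horizontal axis, log scale, unit not named) in muscle (left) and bone (right); grey points are all genes with a p and coloured points the cartilage genes. In bone 7 of the 10 cartilage genes lie below the zero line, and Matn3, Col10a1 and Col9a3 lie above it.

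A list of 17 further cartilage matrix genes was measured in the same comparisons. In muscle 4 of the 17 were listed at 0, 6 had an FDR and 0 passed, with a median log2 fold change of 0.09 over the 13 with a p. The smallest p there belonged to Ucma at -7.61 and the link protein gene Hapln1 at 7.05 by the authors' deposited table (p = 0.0182 and 0.0356, both without an FDR), at larger group means of 9.80 and 6.95. In bone 15 of the 17 had an FDR and 0 passed, and 11 of the 16 with a p were negative, with a median of -0.69. Matn4, a matrilin gene, had the smallest p of the list in bone, 0.0273, with a log2 fold change of 5.16 by the authors' deposited table, where its larger group mean was 3.87. Next by p in bone came Ucma, at 4.20 by the authors' deposited table (p = 0.0671), opposite in sign to its muscle value. Col27a1, a fibrillar collagen gene of cartilage, had -2.19 in bone (p = 0.172) and Epyc, a small proteoglycan gene, had 3.17 (p = 0.187) by the authors' deposited table.

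Chondrocyte regulators other than Sox9 did not pass in either tissue. Of 15 such genes, 4 were listed at 0 in each tissue, and 0 of the 5 in muscle and 0 of the 10 in bone with an FDR passed. Sox5 and Sox6, partners of Sox9, had 0.46 and -0.21 in muscle (p = 0.799 and 0.912) and -0.36 and 0.42 in bone (p = 0.862 and 0.826) by the authors' deposited tables. Bmpr1b had the smallest p of the list in muscle, at -7.77 by the authors' deposited table (p = 0.0159, without an FDR). Its larger group mean there was 10.4. Pthlh, a growth plate hormone gene, and Runx2, a hypertrophy and bone regulator, had 8.21 and 8.04 in bone by the authors' deposited table (p = 0.0113 and 0.0130, FDR = 0.0784 and 0.0793). Their larger group means were 7.30 and 7.27. In bone 2751 of the 8534 genes with an FDR had one under 0.1, and 2398 of them were higher in knockout samples.

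Enzymes and transporters that make chondroitin sulfate, the sugar chain of aggrecan, form a list of 13 genes, of which 0 were listed at 0 in muscle and 1 in bone. In each tissue 8 of them had an FDR, and 0 passed in either. Median log2 fold changes were -0.05 over 13 genes with a p in muscle and 2.92 over 12 in bone. Over all genes with a p the medians were 0.12 in muscle and 2.51 in bone. The smallest p in muscle was that of Csgalnact1, which starts the chain, at 4.68 by the authors' deposited table (p = 0.00720, FDR = 0.339). The smallest in bone was that of Csgalnact2, at 8.64 by the authors' deposited table (p = 0.00918, FDR = 0.0784). Its larger group mean in bone was 12.5, and 2751 of the 8534 bone genes with an FDR had one under 0.1.

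Effects in the tissues were compared for the 5 members with a p in both. Comp had 1.08 in muscle and -0.52 in bone by the authors' deposited tables, a difference of 1.60 with an approximate interval of -0.64 to 3.85. For Prg4 the difference, muscle minus bone, was 0.92, with an interval of -0.64 to 2.49. Sox9 differed by 0.01 with an interval of -2.68 to 2.69, too wide to show that the effects were alike. Col2a1 and Col9a2 differed by 3.69 and 3.72, with intervals of -1.29 to 8.67 and -1.28 to 8.73. All 5 intervals include 0, so no difference between the tissues was shown.

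Markers of other cells were measured in the same comparisons. Neutrophil genes in bone were positive in 7 of 7 cases by the authors' deposited table, with a median of 2.92, 1 gene called and a range of larger group means of 40.3 to 6106. The called gene was Ltf, lactoferrin, at 7.45 by the authors' deposited table (FDR = 0.000229). The 5 erythroid genes were all negative in muscle, with a median of -0.99, and all positive in bone, with a median of 0.99, and 0 passed in either tissue. Among all muscle genes with a p, 46.5% were negative. In muscle 3 of 7 neutrophil genes were listed at 0 and none had an FDR. Osteoblast genes passed in 0 of 1 case with an FDR in muscle and in 0 of 5 in bone, where 4 of 7 were positive. Bglap2, an osteocalcin gene, had 9.63 (p = 0.00489, FDR = 0.0784) and Alpl, a mineralization enzyme gene, had -3.95 by the authors' deposited table (p = 0.0160, FDR = 0.0822). Larger group means in bone were 16.85 for Bglap2 and 162 for Alpl. An FDR under 0.1 was held by 2751 of the 8534 bone genes with an FDR. Summed marker levels per group are not given because only the larger group mean is known. The part of these cells in the cartilage values was not tested.

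Tendon and stromal markers stood beside the muscle values. Of 6 tendon genes 5 had an FDR in muscle and 0 passed. Thbs4, a relative of Comp, had 0.76 (p = 0.0278) and the tendon regulator Scx -5.18 (p = 0.0207) by the authors' deposited table. In bone Scx, Mkx and Kera were listed at 0 and the remaining 3 tendon genes did not pass by the authors' deposited table. Tnmd had the smallest p of these 3, at 7.95 by the authors' deposited table (p = 0.0181, FDR = 0.0829), with a larger group mean of 5.25. Of the 8534 bone genes with an FDR, 2751 had one under 0.1. All 6 stromal genes were positive in muscle, with a median of 0.55 and 0 passing, and 3 of 6 were positive in bone, with a median of -0.15. Of all genes with a p, 53.5% were positive in muscle and 69.7% in bone. Of the genes gated against, Ptprc, the CD45 gene, was at 0.781 in muscle and 23.1 in bone, and Pecam1, the CD31 gene, was at 3.19 in muscle and 0.304 in bone by the authors' deposited tables. Vcam1, gated against in muscle alone, was at 53.7 in muscle and 55.9 in bone in these deposited tables. Muscle fibre genes passed in 0 of 2 cases with an FDR in each tissue. Their part in the cartilage values was not tested.

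Positions of 3 members leave their counts uncertain. Prg4, Col9a3 and Col10a1 end within a gene on the opposite strand in GENCODE M21, namely Tpr, Tcfl5 and Nt5dc1, and whether counting used the strand is not stated. Tpr, a nuclear pore gene that meets the end of Prg4, had -1.76 in muscle by the authors' deposited table (p = 8e-05, FDR = 0.0517), with 313 as its larger group mean, where Prg4 had -0.02. In bone Tpr was at 45.4 by the authors' deposited table, and Tcfl5 and Nt5dc1 were listed at 0, at positions where Col9a3 and Col10a1 were above 0. In muscle Nt5dc1 was at 9.93, with a log2 fold change of 4.85 (p = 0.0291, without an FDR) by the authors' deposited table. Col10a1, Tcfl5 and Col9a3 were listed at 0 there. The last 300 bases of protein-coding transcripts of the 10 members matched no transcript of another gene over at least 50 bases at 90% identity.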

How the data were processed

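Sorted cells were profiled with a QuantSeq 3' mRNA kit (labels' protocols), so values reflect transcript ends. The aligner, counter and test are not stated. Builds GRCm38 and mm10 are named, per the submitters' processing notes, but the tables' gene regions equal GENCODE M21 (GRCm38) in only 2.20% of 25600 matched genes and in 0 of the 10 members, so positions were taken from GENCODE M21 by Ensembl ID. Coordinates of the tables were not used.

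Per the file headers, the authors made the log2 fold changes (knockout over control), p-values, FDR and Bonferroni p. The larger group mean is a score of the deposited tables whose unit is not named. The threshold for a call was an FDR of 0.05 as the authors give it. There are 48 columns of per-library values, from 12 libraries, whose names match no label. They were not used, so depth per sample, replicate spread, count tests, leaving out replicates and a pairing check were planned and could not be run.

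Intervals at 95% were computed here from the authors' log2 fold change and p, assuming a two-sided normal test, with scipy 1.17.1. They are rough for low genes. Benjamini-Hochberg adjustment was tested on simulated normal values. For the intervals the same simulation checked only the formula, and their coverage in data like these was not tested. The alternatives were adjustment over all genes with a p, FDR 0.1, unadjusted p, Bonferroni, and a larger group mean of at least 10 or, added after seeing the data, at least 100. Named genes were all members, Esr1, Pdgfra and up to 4 genes of smallest p per list, Ihh, Gdf5, Sox5, Sox6, Mkx, Kera, genes gated against, and those overlapping a member being named outside this rule after values were seen. The members and lists were chosen with earlier results of these data known.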

Additional observations from a re-analysis of the deposited data

How the results depend on the processing

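No cartilage gene passed in either tissue under any of the alternatives run, 79 member values in all. The lowest was the unadjusted p of Col9a1 in bone, 0.0604, and its adjusted p ranged from 0.138 to 1.00 over the settings. An adjusted p cannot be below its unadjusted p, so with none under 0.05 every adjusted setting at 0.05 had to give this outcome. These settings reuse the same p-values and are no independent check. Those at a larger group mean of at least 10 or 100 also keep members through the group in which they are higher. Counts over all genes did move. In muscle, 9 genes passed at the authors' FDR of 0.05, 1543 at an unadjusted p under 0.05, 4 by Bonferroni p and 5 at a larger group mean of at least 100. In bone, 3 passed at the authors' FDR of 0.05, 2751 at FDR under 0.1, 3474 at an unadjusted p under 0.05, 1 by Bonferroni p, 713 at a larger group mean of at least 10 and 8 at one of at least 100. The last 2 settings adjust over fewer genes, and the other counts follow from the threshold. No paired analysis was possible because the per-library columns carry no label, group or replicate number. Count tests with other tools, other normalizations and leaving out replicates were not run for the same reason. Precision is lowest for Matn3, Col10a1 and Col9a3 in bone, and for Col2a1 and Col9a2 in muscle, where intervals reach several log2 units. Bone members with negative values had wide intervals too, among them -5.50 to 0.12 for Col9a1, -3.84 to 1.29 for Acan and -2.82 to 1.76 for Sox9.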
